A study of Mus musculus with 4 samples.

Results

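The genes of TGF-beta, activin and BMP signaling described here are 42 of the 22594 mouse genes measured. They were chosen by name, with earlier results of these data known. They cover the ligands, the proteins that bind them outside the cell, the receptors, the SMAD proteins, their corepressors and common targets. Total RNA came from 2 cultured mouse lines of endometrial cancer, MECPK and MSH2KO21B, with 2 libraries for each, and the design sets the lines against each other. The labels give uterine cancer as the source, and they do not give strain, alleles, treatment, the way either line was made, or whether either is a single clone or descends from the other. The names are therefore used only as labels. The labels also do not say whether replicates 1 and 2 were grown separately, and the p-values therefore reflect a spread between libraries that may be technical.

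Ligands of the TGF-beta superfamily are secreted as precursors and bind pairs of type II and type I receptor kinases. TGF-beta and activin receptors phosphorylate SMAD2 and SMAD3, and BMP receptors phosphorylate SMAD1, SMAD5 and SMAD9, each of which enters the nucleus with SMAD4. Latent TGF-beta binding proteins, secreted antagonists, inhibitory SMADs and nuclear corepressors limit the signal at successive steps. In the endometrium the family is known for its part in decidualization and implantation, and in epithelial cancers TGF-beta is known both to halt growth and to drive change toward a mesenchymal state.

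Values are TPM, estimated reads per unit of transcript length brought to a total of 1000000 in every library, so each is a share of its own library and levels of different genes can be set side by side. This unit does not keep the read number, and with the depth of each library unknown no counting interval can be given. A gene was tested where at least 2 libraries reached 1 TPM. Differences are MSH2KO21B minus MECPK in log2(TPM + 1), a scale that understates the change of low genes. A gene was called when the Benjamini-Hochberg adjusted p of limma over all 11921 genes tested was under 0.05. The lines were far apart as a whole. The test called 76.2% of all genes, with 46.6% higher in MSH2KO21B and 29.7% lower, and in 88.9% the values of the lines did not overlap. The median of the signed differences over all genes was 0.19, so a difference near that size is no larger than that of the typical gene.

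Of the 42 genes, 40 were tested, and 27 were higher and 8 lower in MSH2KO21B, so that 87.5% were called beside the 76.2% of all genes. Differences over 1 on the log2 scale were found for 21 of them, or 52.5%, beside 30.3% of all genes. The median difference was 0.66, which is 0.47 above the median gene. The values of the lines did not overlap for 38 of the 40, or 95%, beside 88.9% of all genes. For 8 genes both libraries of a line lay under 1 TPM, so these had to differ to be tested at all. They were Ltbp2, Tgfb2, Bmp4, Fstl1, Fstl3, Nog, Grem1 and Tgfbi, and their p-values carry that limit. The counts describe the genes and support nothing further. The 4 called genes with the largest positive differences were Fstl1, Tgfbi, Fstl3 and Tgfb2, and those with the largest negative ones were Inhba, Ltbp2, Ltbp3 and Grem1. No called gene changed direction under any of the 14 other processing settings in which it was tested. With a pseudocount of 0.1 in place of 1, the differences of Ltbp2, Tgfb2, Bmp4, Fstl3, Nog and Grem1 grew by over 1.5 times. In RNA of whole cultures, fewer cells that express a gene and less RNA per cell cannot be told apart.

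**Figure D1:**
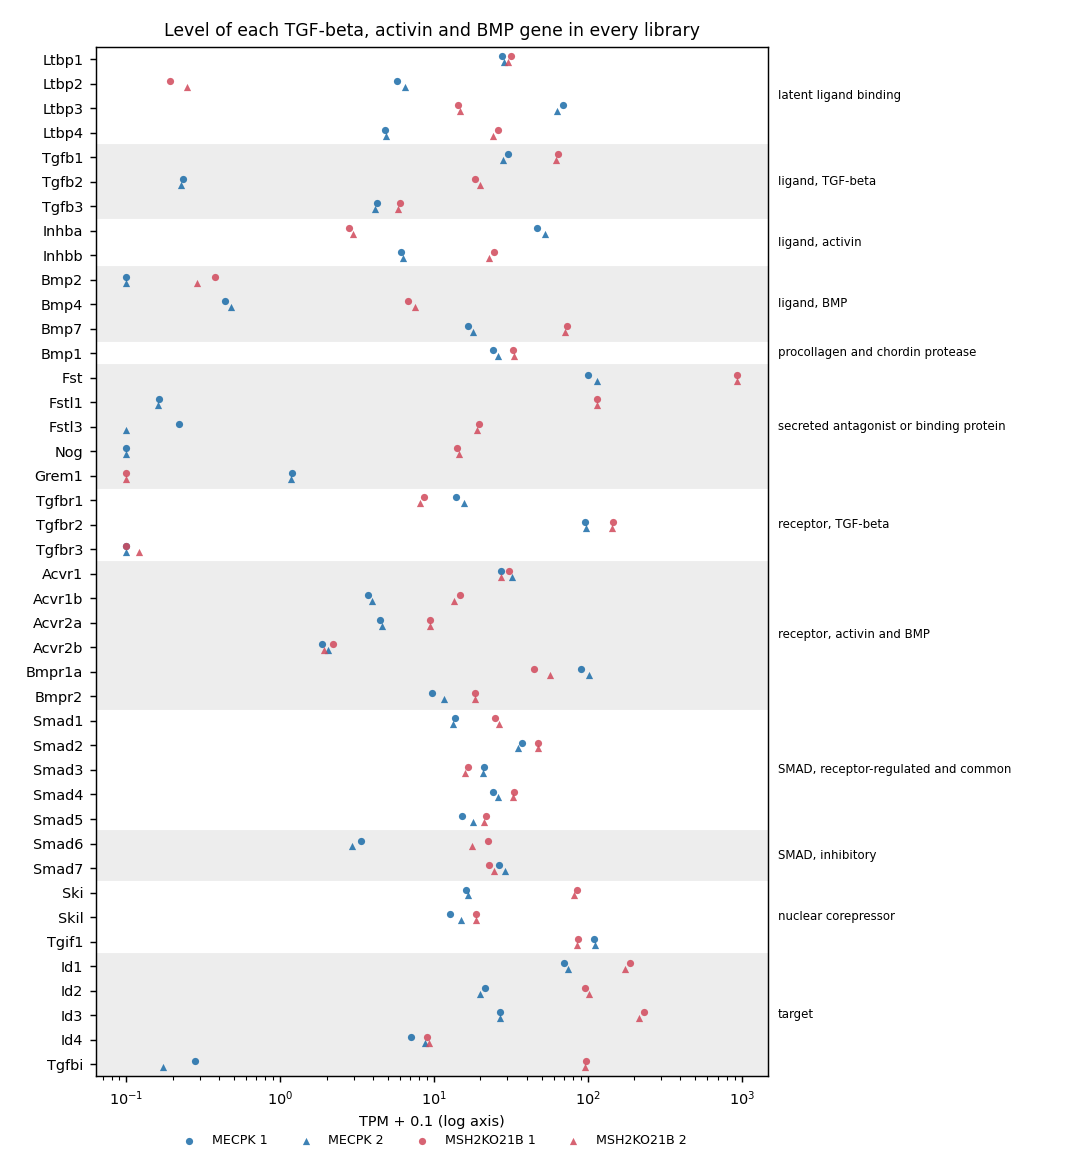
Level of each of the 42 genes in every library, as TPM + 0.1 on a log axis, ordered by role. Points are single libraries, circles replicate 1 and triangles replicate 2. Replicates lie close together, and Tgfb2, Fstl1, Fstl3, Nog and Tgfbi lie far apart between the lines.

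The promoters of 5 genes are shown because they hold the starts of genes that led their role with a difference over 2 on the log2 scale. Ltbp2, Fstl1 and Ski also led their roles, but are not shown because their GENCODE start lies more than 30 bases upstream of the RefSeq start. Each runs from 250 bases before to 20 bases after the RefSeq transcription start (build GRCm38.p6), written 5′ to 3′ on the strand of the gene. Capitals mark the palindromic SMAD element GTCTAGAC, the SMAD-binding pentamer CAGAC or its reverse complement GTCTG, and GGCGCC, a GC-rich element bound by SMADs.
Tgfb2, chr1:186705970-186706239, minus strand: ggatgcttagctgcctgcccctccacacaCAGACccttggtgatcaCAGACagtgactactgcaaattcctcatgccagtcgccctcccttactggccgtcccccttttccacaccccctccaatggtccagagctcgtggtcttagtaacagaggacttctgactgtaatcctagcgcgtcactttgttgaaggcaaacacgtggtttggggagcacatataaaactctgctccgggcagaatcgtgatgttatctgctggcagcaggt
Inhba, chr13:16011601-16011870, plus strand: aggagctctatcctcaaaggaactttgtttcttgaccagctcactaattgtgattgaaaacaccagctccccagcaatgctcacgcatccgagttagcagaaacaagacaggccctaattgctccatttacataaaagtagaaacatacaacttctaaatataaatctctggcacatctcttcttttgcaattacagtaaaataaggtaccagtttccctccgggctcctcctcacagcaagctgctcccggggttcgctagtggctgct
Bmp4, chr14:46390650-46390919, minus strand: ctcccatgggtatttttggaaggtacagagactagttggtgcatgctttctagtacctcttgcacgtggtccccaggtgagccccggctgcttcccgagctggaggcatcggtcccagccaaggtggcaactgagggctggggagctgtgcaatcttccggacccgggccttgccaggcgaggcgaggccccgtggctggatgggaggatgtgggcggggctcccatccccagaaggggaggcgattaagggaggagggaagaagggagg
Smad6, chr9:64022040-64022309, minus strand: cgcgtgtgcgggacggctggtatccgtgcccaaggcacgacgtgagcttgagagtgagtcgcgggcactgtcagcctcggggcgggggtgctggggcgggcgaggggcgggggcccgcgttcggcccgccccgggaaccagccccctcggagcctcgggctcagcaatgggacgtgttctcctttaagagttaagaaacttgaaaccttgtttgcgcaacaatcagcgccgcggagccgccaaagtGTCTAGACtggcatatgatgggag
Tgfbi, chr13:56609336-56609605, plus strand: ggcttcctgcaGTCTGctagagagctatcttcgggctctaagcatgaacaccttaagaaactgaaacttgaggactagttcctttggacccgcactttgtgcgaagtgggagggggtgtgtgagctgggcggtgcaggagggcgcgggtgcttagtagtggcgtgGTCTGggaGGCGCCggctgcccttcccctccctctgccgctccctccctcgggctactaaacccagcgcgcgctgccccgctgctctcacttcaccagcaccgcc

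Smad6 alone of the 30 genes found in the RefSeq table held GTCTAGAC, which begins 4 bases before its start. No promoter was available for Smad7, Smad2, Smad4, Tgfb3, Bmp1, Bmp2, Bmp7, Fst, Nog, Tgfbr3, Skil or Id1. These genes were therefore not searched, and whether they hold the element is not known here. Of all 32817 promoters of this length, searched on both strands, 0.183% hold it. The pentamer was in 2 places in Tgfb2, 221 and 204 bases before the start, and in 2 places in Tgfbi, 239 and 85 bases before it. Tgfbi also held GGCGCC, 77 bases before the start. The pentamer is common, with 45.4% of all promoters holding it and 17 of the 40 promoters of these genes, and GGCGCC was in 10.4% of all and in 11 of the 40. Inhba and Bmp4 held none of these elements. None of these elements contains another. The E-box CACGTG was in Tgfb2, Bmp4 and Acvr1b, and in 6.57% of all promoters, and the AP-1 element TGANTCA was in Ltbp3, and in 7.23% of all. The GC box GGGCGG was in 30 of the 40 promoters and in 34.1% of all. These matches describe letters in a window and show no binding.

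The TGF-beta ligands were higher in MSH2KO21B. Tgfb2, which encodes the isoform known to need a co-receptor to bind well, was at 0.134 and 0.125 TPM in MECPK and at 18.5 and 19.7 TPM in MSH2KO21B. Its libraries formed groups far apart, near 0 in MECPK (log2 difference 4.15, SE 0.08, limma adjusted p = 1.04e-05). Tgfb1, the most abundant isoform in every library, was at 29.98 and 28.2 against 64.1 and 61.8 TPM, a ratio of 2.17 (log2 difference 1.09, limma adjusted p = 0.000132). Tgfb3 stood at 4.18 and 4.004 against 5.93 and 5.71 TPM (log2 difference 0.42, limma adjusted p = 0.00659). The groups did not overlap, but the call of Tgfb3 was lost after quantile normalization (limma adjusted p = 0.717). The summed TPM of the isoforms was 34.3 and 32.3 in MECPK and 88.6 and 87.1 in MSH2KO21B. Tgfb2 made up 0.391% and 0.387% of that sum in MECPK and 20.9% and 22.6% in MSH2KO21B, while the share of Tgfb1 went from 87.4% and 87.2% to 72.4% and 70.9%.

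The latent TGF-beta binding proteins tie the inactive ligand to the matrix, except LTBP2, which does not bind it. Ltbp3 was at 68.8 and 63.2 TPM in MECPK and at 14.3 and 14.6 TPM in MSH2KO21B (log2 difference -2.12, limma adjusted p = 2.91e-05). Ltbp4 was the other way round, at 4.68 and 4.78 against 26.0 and 24.1 TPM (log2 difference 2.18, limma adjusted p = 3.8e-05). Neither pair of groups overlapped, and Ltbp3 led the family in MECPK with 64.4% and 61.5% of its sum. In MSH2KO21B, Ltbp1 led with 44.0% and 43.6%, ahead of Ltbp4 with 36.0% and 35.0%. Ltbp2 was at 5.68 and 6.38 TPM in MECPK and at 0.091 and 0.146 TPM in MSH2KO21B (log2 difference -2.65, limma adjusted p = 3.99e-05). Ltbp1 was near level between the lines, at 27.7 and 28.4 against 31.8 and 30.02 TPM, and was not called (log2 difference 0.13, limma adjusted p = 0.101); its sign turned after quantile normalization (-0.027) and median-ratio scaling (-0.076).

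**Figure D2:**
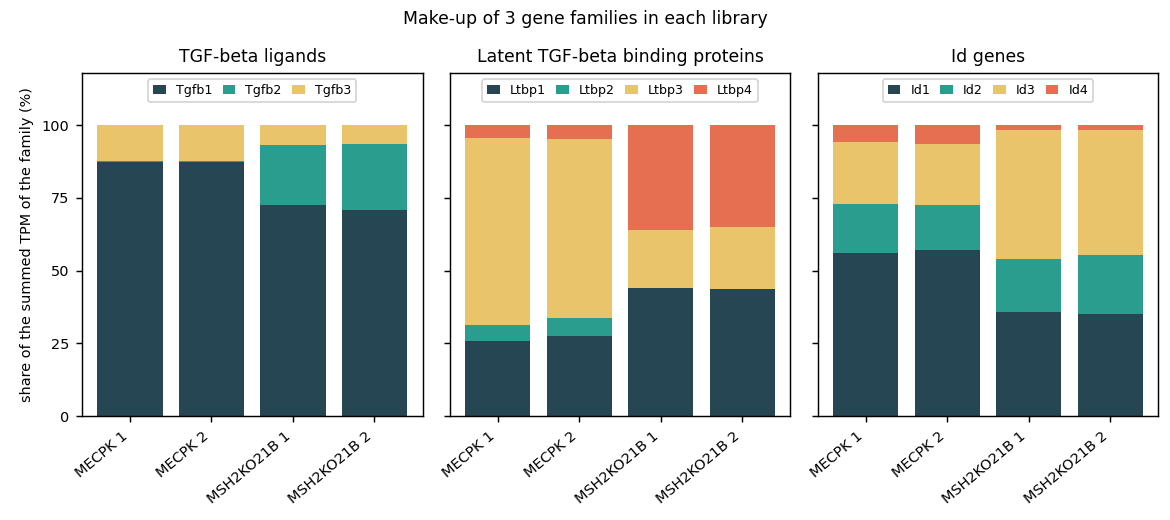
Share of each gene in the summed TPM of its family, in percent, for TGF-beta ligands, latent TGF-beta binding proteins and Id genes in each of the 4 libraries. Tgfb2 appears as a band of 20.9% and 22.6% in MSH2KO21B, Ltbp3 narrows from 64.4% and 61.5% to 19.8% and 21.2%, and Id3 widens from 21.3% and 20.8% to 44.2% and 42.8%.

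The activin subunit genes exchanged places. Inhba, which encodes the subunit of activin A, was at 46.7 and 52.6 TPM in MECPK and at 2.70 and 2.87 TPM in MSH2KO21B. This was the largest negative difference among the 40 genes and a ratio of 17.8 between the means (log2 difference -3.74, SE 0.09, limma adjusted p = 1.47e-05). Inhbb, which encodes the subunit of activin B, was at 5.97 and 6.14 against 24.5 and 22.8 TPM (log2 difference 1.81, limma adjusted p = 5.9e-05). Inhba held 88.7% and 89.5% of the summed TPM of both subunit genes in MECPK and 9.91% and 11.2% in MSH2KO21B. The sum was 52.6 and 58.7 TPM in MECPK and 27.2 and 25.7 TPM in MSH2KO21B.

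Of the BMP ligand genes among the 42, Bmp4 and Bmp7 were tested and higher in MSH2KO21B, while Bmp6, outside the 42, was lower, at 2.51 and 2.62 against 0.328 and 0.366 TPM (log2 difference -1.41, limma adjusted p = 0.000145). Bmp7 was the most abundant, at 16.6 and 17.8 TPM in MECPK and 73.2 and 70.8 TPM in MSH2KO21B (log2 difference 2.01, limma adjusted p = 2.9e-05). Bmp4 was at 0.341 and 0.382 TPM in MECPK and at 6.71 and 7.45 TPM in MSH2KO21B (log2 difference 2.57, limma adjusted p = 3.88e-05). Bmp7 still made up 91.3% and 90.3% of the summed TPM of Bmp2, Bmp4 and Bmp7 in MSH2KO21B, after 97.98% and 97.9% in MECPK. In MECPK, Bmp2 was listed at 0 in either library, against 0.274 and 0.186 TPM in MSH2KO21B, below the level needed for the test. Bmp1, which despite its name is a protease that cuts procollagen and the BMP antagonist chordin, was at 23.96 and 25.9 against 32.7 and 33.1 TPM (log2 difference 0.39, limma adjusted p = 0.00472). Its call was lost without MSH2KO21B replicate 1 (limma adjusted p = 0.0525) or replicate 2 (0.0581).

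The secreted antagonists and binding proteins had the highest median difference of any role, 3.93 over 5 genes. Of the 5, 4 were higher in MSH2KO21B, or 80%, beside 46.6% of all genes. For 4 of the 5 (Fstl1, Fstl3, Nog and Grem1) both libraries of a line lay under 1 TPM. These had to differ to be tested at all, and the median and its rank carry that limit. Fst encodes follistatin, which binds and neutralizes activin (ENSMUSG00000021765.9, GRCm38, chromosome 13, 114452290 to 114458951). It stood at 100.1 and 114.6 TPM in MECPK and at 933 and 929.6 TPM in MSH2KO21B, where it was 192nd and 186th among all genes by TPM. The ratio of the means was 8.68 and the groups were far apart (log2 difference 3.11, SE 0.08, limma adjusted p = 1.6e-05). Set against the sum of Inhba and Inhbb, Fst had 1.90 and 1.95 TPM per TPM of activin subunit RNA in MECPK and 34.3 and 36.2 in MSH2KO21B.

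Fstl1, which encodes a secreted glycoprotein related to follistatin (chromosome 16, 37776873 to 37836514), had the largest difference of all 40 genes. It was at 0.063 and 0.059 TPM in MECPK and at 113.9 and 114.6 TPM in MSH2KO21B (log2 difference 6.76, SE 0.07, limma adjusted p = 4.23e-06). Fstl3, another activin-binding protein, was at 0.118 TPM and listed at 0 in the MECPK libraries and at 19.6 and 19.0 TPM in MSH2KO21B (log2 difference 4.26, limma adjusted p = 1.25e-05). Nog, which encodes the BMP antagonist noggin, had no TPM in MECPK, where both libraries list it at 0, and 14.04 and 14.4 TPM in MSH2KO21B (limma adjusted p = 1.04e-05). These genes were near 0 throughout MECPK and plainly present throughout MSH2KO21B. Grem1, which encodes the BMP antagonist gremlin, ran the other way at a low level, with 1.08 and 1.07 TPM in MECPK and a listing at 0 in both MSH2KO21B libraries (limma adjusted p = 0.000304). No fold is given for Nog and Grem1, since a line is listed at 0.

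**Figure D3:**
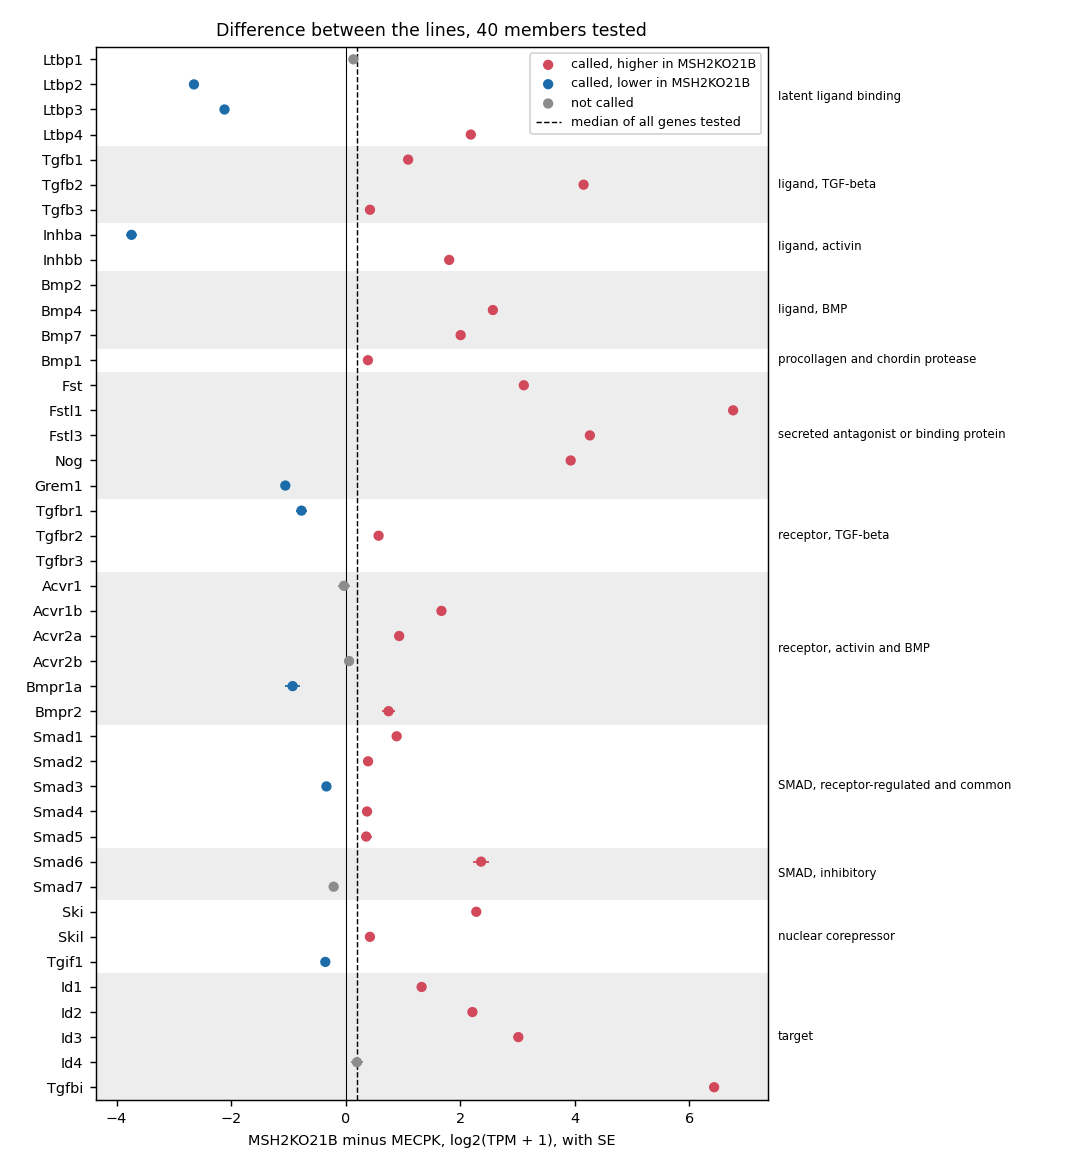
Difference between the lines for the 40 genes tested, MSH2KO21B minus MECPK in log2(TPM + 1), with the SE of the fit as a bar where it exceeds the point. Red points were called higher, blue points lower and grey points were not called; the dashed line is the median of all genes tested, 0.19. Antagonists other than Grem1, with Tgfb2 and Tgfbi, lie far to the right, Inhba farthest to the left, and most receptors and SMADs lie within 1 of 0.

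Of 8 receptor genes tested, 4 were higher, 2 lower and 2 not called, so that 75% were called, near the 76.2% of all genes. Of the 9 receptor genes listed, Acvr1b alone was called with a difference over 1 on the log2 scale, which 30.3% of all genes were. Tgfbr2, the type II receptor for TGF-beta, was the most abundant receptor RNA in MSH2KO21B, at 95.2 and 97.6 TPM in MECPK and 145.0 and 142.8 TPM there (log2 difference 0.57, limma adjusted p = 0.000372). Tgfbr1, its type I partner, was lower, at 13.9 and 15.6 against 8.46 and 7.96 TPM (log2 difference -0.77, limma adjusted p = 0.00134). The groups did not overlap for either, and the TPM of Tgfbr2 per TPM of Tgfbr1 was 6.86 and 6.24 in MECPK and 17.1 and 17.9 in MSH2KO21B. Tgfbr3, which encodes the co-receptor betaglycan, was listed at 0 in 3 libraries and at 0.02 TPM in MSH2KO21B replicate 2.

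Among activin receptor genes, Acvr1b, the type I receptor ALK4, was at 3.63 and 3.84 TPM in MECPK and 14.7 and 13.4 TPM in MSH2KO21B (log2 difference 1.67, limma adjusted p = 0.000106). The type II receptor gene Acvr2a was at 4.32 and 4.48 against 9.25 and 9.35 TPM (log2 difference 0.93, limma adjusted p = 0.000394). Both were higher with no overlap. The related type II receptor gene Acvr2b overlapped between the lines, at 1.77 and 1.93 against 2.12 and 1.83 TPM, and was not called (log2 difference 0.06, limma adjusted p = 0.596). It was called lower after quantile normalization (-0.49, limma adjusted p = 0.0133), and its sign also turned with median-ratio scaling (-0.083) and without MSH2KO21B replicate 1 (-0.012). Acvr1, the type I receptor ALK2 of the BMP branch, also overlapped, at 27.3 and 32.02 against 30.7 and 27.2 TPM, and was not called (log2 difference -0.03, limma adjusted p = 0.803). Its sign turned without MECPK replicate 2 (0.080) or MSH2KO21B replicate 2 (0.054).

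The BMP receptor genes parted. Bmpr1a, a type I receptor, was at 90.7 and 102.4 TPM in MECPK, overlapping Tgfbr2 there, and at 44.7 and 56.3 TPM in MSH2KO21B (log2 difference -0.93, SE 0.13, limma adjusted p = 0.00273). Much of that level sits on Bmpr1a-204, an incomplete transcript model with 116 coding nucleotides that took 70.8% to 75.9% of the TPM of the gene. The full-length Bmpr1a-201 was at 19.6 in each MECPK library and at 11.54 and 11.3 TPM in MSH2KO21B, and was lower as well (log2 difference -0.73, limma adjusted p over all transcripts = 0.00179). Bmpr2, the BMP type II receptor, was at 9.54 and 11.6 against 18.4 and 18.3 TPM (log2 difference 0.75, limma adjusted p = 0.00279). The groups did not overlap, but the Bmpr2 call was lost without MSH2KO21B replicate 1 (limma adjusted p = 0.0514) or replicate 2 (0.051).

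The 5 signal-carrying SMAD genes among the 42 differed by less than 1 on the log2 scale. Smad9, which is not among them, was near 0 in MECPK, listed at 0 and at 0.040 TPM, and at 2.13 and 1.79 TPM in MSH2KO21B (log2 difference 1.54, limma adjusted p = 0.000198). Smad1, of the BMP branch, had the widest difference of the 5, at 13.6 and 13.2 TPM in MECPK and 24.9 and 26.3 TPM in MSH2KO21B (log2 difference 0.89, limma adjusted p = 0.000329). Smad5, of the same branch, was at 15.1 and 17.9 against 21.7 and 21.03 TPM (log2 difference 0.36, limma adjusted p = 0.0251). Of the TGF-beta and activin branch, Smad2 was at 37.1 and 35.2 against 47.6 and 47.7 TPM (log2 difference 0.39, limma adjusted p = 0.0026). Smad2 was the most abundant of the 5 in every library and its groups did not overlap. Smad3 was lower, at 20.96 and 20.7 against 16.6 and 15.9 TPM (log2 difference -0.34, limma adjusted p = 0.00707). Smad4, the partner that both branches share, was at 24.1 and 26.1 against 33.0 and 32.4 TPM (log2 difference 0.37, limma adjusted p = 0.00575).

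Smad2, Smad4 and Smad5 lay within 0.20 of the median gene. The Smad5 call was lost after quantile normalization (limma adjusted p = 0.179), with median-ratio scaling (0.198) and without MSH2KO21B replicate 1 (0.166) or replicate 2 (0.138). The Smad4 call was lost with median-ratio scaling (limma adjusted p = 0.0657) and without MSH2KO21B replicate 1 (0.0651) or replicate 2 (0.0578), and the Smad3 call without MSH2KO21B replicate 2 (0.0667).

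The inhibitory SMAD genes, which are known targets of the signals they block, gave different calls, and the difference between the genes was not tested. Smad6, which acts mainly on the BMP branch, was at 3.26 and 2.83 TPM in MECPK and 22.2 and 17.6 TPM in MSH2KO21B, a ratio of 6.53 (log2 difference 2.36, SE 0.14, limma adjusted p = 0.00016). Its promoter is printed above. The GTCTAGAC match there shows no binding, its part in the difference was not tested, and no promoter of Smad7 was available to search. Smad7, which acts on both branches, was at 26.3 and 28.6 against 22.6 and 24.6 TPM and was not called (log2 difference -0.21, limma adjusted p = 0.0599). Smad7 was called lower after quantile normalization (-0.38, limma adjusted p = 0.00848), with median-ratio scaling (-0.42, 0.00554) and with the replicate number as a block (-0.21, 0.0441).

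Among the corepressors, Ski, which binds SMAD2, SMAD3 and SMAD4, was at 16.1 and 16.6 TPM in MECPK and 84.7 and 81.8 TPM in MSH2KO21B (log2 difference 2.28, SE 0.05, limma adjusted p = 1.5e-05). Its relative Skil was at 12.7 and 14.8 against 18.6 and 18.7 TPM (log2 difference 0.42, limma adjusted p = 0.0119). Tgif1, a homeodomain repressor, was lower, at 109.7 and 110.9 against 86.8 and 85.03 TPM (log2 difference -0.36, limma adjusted p = 0.00175). None of these groups overlapped, and Tgif1 was the most abundant of them in every library. The Skil call was lost after quantile normalization (limma adjusted p = 0.104), with median-ratio scaling (0.0751) and without MSH2KO21B replicate 1 (0.102) or replicate 2 (0.106).

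The Id genes, which encode helix-loop-helix proteins without a DNA-binding region and are classic BMP targets, were higher in MSH2KO21B except Id4. Id3 (chromosome 4, 136143497 to 136145755) was at 26.6 and 26.9 TPM in MECPK and 231.9 and 213.6 TPM in MSH2KO21B (log2 difference 3.01, SE 0.06, limma adjusted p = 1.04e-05). Id2 was at 21.2 and 19.8 against 96.04 and 101.3 TPM (log2 difference 2.21, limma adjusted p = 2.31e-05). Id1 was at 69.7 and 74.0 against 187.5 and 175.2 TPM (log2 difference 1.32, limma adjusted p = 7.98e-05). None of the 3 overlapped between the lines, and the leading gene was Id1 in MECPK, with 56.0% and 57.2% of the Id sum, and Id3 in MSH2KO21B, with 44.2% and 42.8%. Id4 was at 7.03 and 8.58 against 8.95 and 9.14 TPM and was not called (log2 difference 0.20, limma adjusted p = 0.167). Its difference was that of the median gene, turned sign after quantile normalization (-0.13) and passed the threshold without MECPK replicate 2 (0.32, limma adjusted p = 0.0369). The summed TPM of the 4 was 124 and 129 in MECPK and 524 and 499 in MSH2KO21B.

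Tgfbi, named for its induction by TGF-beta, encodes a matrix protein that binds integrins. It was at 0.180 and 0.072 TPM in MECPK and at 96.9 and 95.1 TPM in MSH2KO21B. The libraries of MECPK were near 0 and those of MSH2KO21B close together (log2 difference 6.43, SE 0.08, limma adjusted p = 5.6e-06). With MECPK under 1 TPM, Tgfbi had to differ to be tested at all.

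Single transcripts were examined to see which forms carried these differences. The table lists 104 transcripts of the 42 genes with 92 different coding sequences, and 22 of the genes have a single coding form. Transcripts that share a coding sequence but differ in their untranslated parts have equal values in 2405 of 2430 such groups (98.97%, within a relative tolerance of 0.001), so forms that differ only outside the coding sequence cannot be told apart here. Of the 72 transcripts tested, 37 were higher and 11 lower, so that 66.7% were called, beside 59.7% of all 23169 transcripts. These counts take transcripts with equal values more than once. The 72 hold 61 different coding forms, of which 44 were called, and the share over all genes was not counted by coding form. No gene had a leading form that differed between the lines in every library.

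Forms of a few genes gave different calls, and whether forms differ from each other in their change was not tested. The full coding form of Smad7, listed as Smad7-201 and Smad7-202 with equal values, summed to 12.96 and 14.3 TPM in MECPK and 13.8 and 16.1 TPM in MSH2KO21B, and neither listing was called (limma adjusted p = 0.414). Smad7-204, a shorter form with 681 coding nucleotides, was at 12.95 and 14.2 against 8.37 and 8.36 TPM and was lower (log2 difference -0.64, limma adjusted p = 0.00552). For Ltbp1, the long form Ltbp1-201 was at 1.86 and 2.12 against 4.08 and 4.15 TPM and was higher (log2 difference 0.78, limma adjusted p = 0.00699), while Ltbp1-202 and Ltbp1-203, which hold most of the TPM of the gene, were not called. Of the Ltbp4 forms, Ltbp4-205 was at 2.87 and 2.86 against 20.7 and 19.7 TPM (log2 difference 2.46, limma adjusted p = 0.000443), and Ltbp4-201 had a difference of 0.59 (limma adjusted p = 0.0243). Tgfb2-206, a form with more coding sequence than Tgfb2-201, was listed at 0 in MECPK and at 3.19 and 2.59 TPM in MSH2KO21B, or 17.3% and 13.2% of the gene. Both tested forms of Smad6 and of Tgfbr2 were higher, and neither main form of Tgfbr1 was called by itself (limma adjusted p = 0.065 and 0.081).

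**Figure D4:**
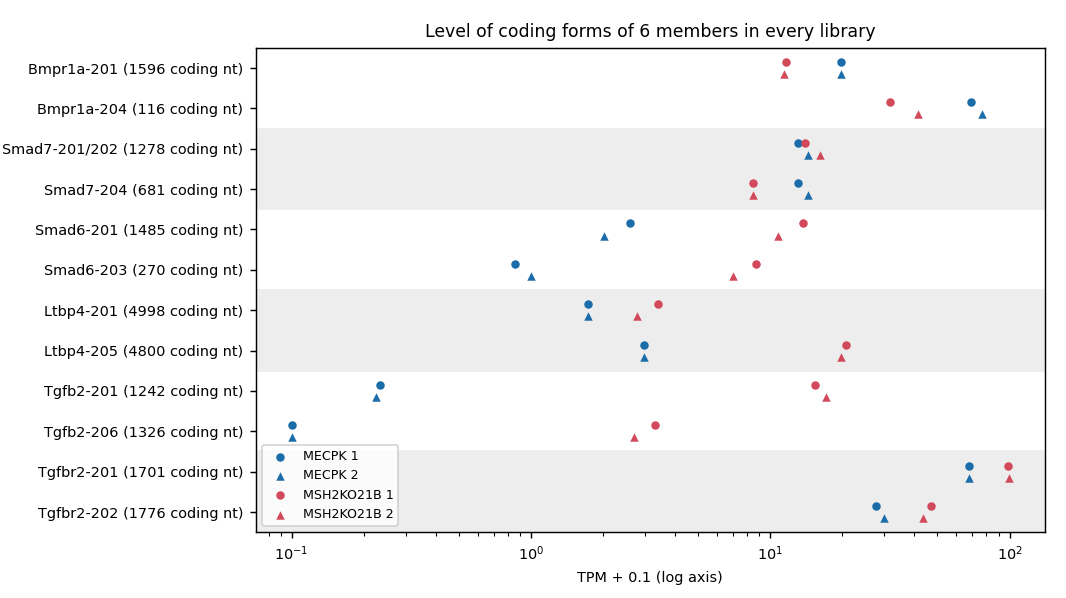
Level of 12 coding forms of 6 genes in every library, as TPM + 0.1 on a log axis, each named with its coding length in nucleotides. Points are single libraries, and Smad7-201 and Smad7-202, which share a coding sequence, are summed. Both forms of Smad6, Ltbp4, Tgfb2 and Tgfbr2 lie higher in MSH2KO21B and both forms of Bmpr1a lower, while the full form of Smad7 overlaps between the lines and Smad7-204 lies lower.

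Beyond the 42 genes, 161 other genes of the pathway were listed in 7 groups by textbook role. The groups were also drawn up with earlier results of these data known. Their counts therefore describe these genes and support nothing further. Of these, 91 were tested, 55 were higher and 23 lower, so that 85.7% were called beside 76.2% of all genes. Their median difference was 0.57. Of the genes tested, 100% of other ligands, 75% of other receptors and 100% of other antagonists were called. The share was 66.7% of genes that process ligands and 85.2% of other intracellular regulators. It was 90% of other TGF-beta and activin targets and 80% of other BMP targets, each beside the 76.2% of all genes. For 23 of the 91 both libraries of a line lay under 1 TPM, so these had to differ to be tested. Among them are Bmp6, Smad9, Lrrc32, Sostdc1, Vasn, Fbn1, Timp3, Loxl2, Dlx2 and Dlx3.

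Of 25 other ligand genes, 4 were tested, 2 higher and 2 lower (median -0.42). Gdf15, a stress-induced cytokine, was at 347 and 281 TPM in MECPK and 5.35 and 5.21 TPM in MSH2KO21B (log2 difference -5.64), and Gdf11, a ligand of the activin receptors, was higher (1.22). Of 15 other receptors and co-receptors, 4 were tested and 3 were higher (median 1.55). Lrrc32 encodes GARP, which holds latent TGF-beta at the cell surface, and was listed at 0 and at 0.037 TPM in MECPK against 24.03 and 26.2 TPM in MSH2KO21B (4.68). Rgmb, a BMP co-receptor, differed by 0.57, and its call was lost without MSH2KO21B replicate 1 (limma adjusted p = 0.0713) or replicate 2 (0.0579).

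Of 20 other secreted antagonists, 7 were tested, 6 higher and 1 lower (median 0.84). Sostdc1, which encodes a BMP and Wnt antagonist, was listed at 0 and at 0.049 TPM in MECPK and stood at 279 and 278 TPM in MSH2KO21B (log2 difference 8.09, limma adjusted p = 3.75e-06). Vasn, whose product binds TGF-beta, differed by 3.01 and Crim1, whose product binds BMPs, by 1.38. Nbl1, a BMP antagonist of the DAN family, was the lower gene, at 99.3 and 107.6 against 32.9 and 31.2 TPM (-1.66).

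Of 18 genes that process or activate ligands, 9 were tested and 6 were higher with none lower (median 1.04). The share called, 66.7%, was below the 76.2% of all genes. Itgb6 encodes the integrin subunit that, paired with alpha V, frees TGF-beta from its latent complex, and was at 4.93 and 5.16 TPM in MECPK and 40.1 and 39.3 TPM in MSH2KO21B (log2 difference 2.75). Itgb5, another partner of alpha V, differed by 2.71 and Pcsk6, a convertase of precursors, by 1.96. Fbn1, which encodes the fibrillin that anchors latent complexes in the matrix, was at 0.003 and 0.005 TPM in MECPK and 16.1 and 15.1 TPM in MSH2KO21B (4.05).

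The other intracellular regulators went both ways. Of 30, 27 were tested, 12 higher and 11 lower (median 0.02). Smurf2 and Nedd4l, ubiquitin ligases that act on receptors and SMADs, were lower (log2 differences -1.43 and -1.54), as was the kinase gene Hipk2 (-1.50). Tgif2, the relative of Tgif1, was higher, at 3.70 and 4.28 TPM in MECPK and 39.5 and 44.7 TPM in MSH2KO21B (3.11).

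Of 36 other target genes of TGF-beta and activin, 30 were tested, 19 higher and 8 lower (median 0.87), and of 17 other BMP targets, 10 were tested, 7 higher and 1 lower (median 1.47). Without MSH2KO21B replicate 1 or replicate 2, the lower TGF-beta and activin targets numbered 4, and Gata3, the lower BMP target, was no longer called once MECPK replicate 1 or MSH2KO21B replicate 2 was left out. Timp3, an inhibitor of metalloproteinases, was at 0.402 and 0.188 TPM in MECPK and 832 and 841 TPM in MSH2KO21B (log2 difference 9.34). Sparc, a matrix protein gene, differed by 6.22, the transcription factor gene Snai2 by 5.91 and the collagen crosslinking enzyme gene Loxl2 by 5.01. Of the BMP targets, the homeobox genes Dlx2 and Dlx3 differed by 5.74 and 3.95, Rasl11b by 3.11 and Hes1, also a Notch target, by 1.12. Many of these genes answer to other signals too. Ccn2 and Pmepa1, widely used readouts of TGF-beta, were looked up after their values were seen and did not share a direction. Ccn2 was at 101 and 70.0 against 534 and 521 TPM and was higher (2.63), and Pmepa1 was at 229 and 245 against 176 and 180.3 TPM and was lower (-0.41).

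**Figure D5:**
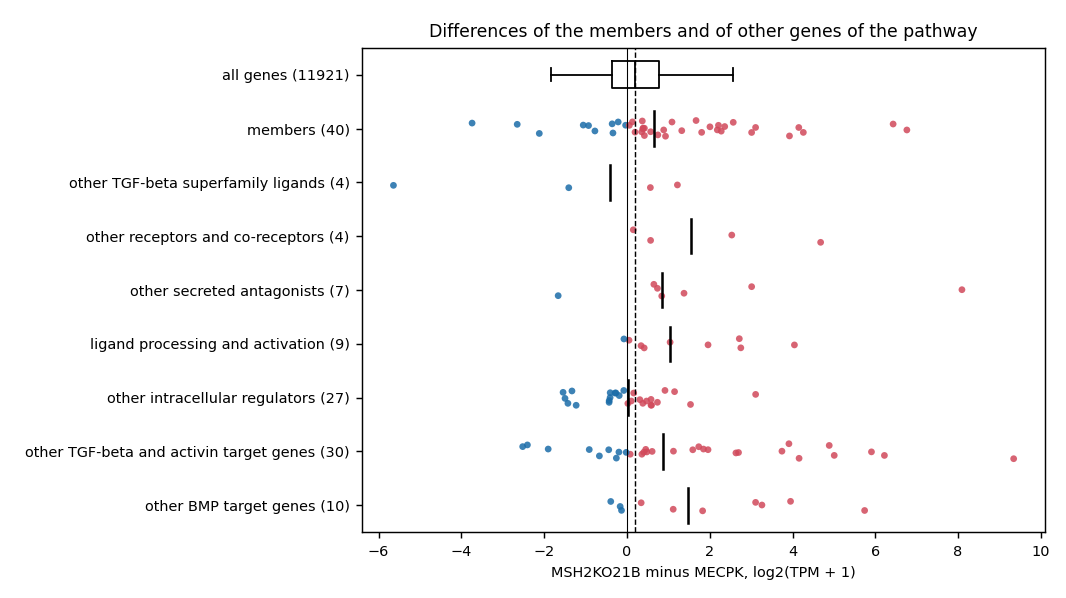
Differences between the lines for the 40 genes tested and for the 7 groups of other pathway genes, MSH2KO21B minus MECPK in log2(TPM + 1). Points are genes, red above 0 and blue below, black ticks are medians, the dashed line is the median of all genes, and the box for all 11921 genes spans the quartiles with whiskers at the 5th and 95th percentiles. Timp3 (9.34) and Sostdc1 (8.09) lie farthest to the right and Gdf15 (-5.64) farthest to the left.

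Both lines expressed epithelial genes, but of different kinds. Keratins of simple epithelium marked MECPK, with Krt8 at 1502 and 1531 TPM against 45.9 and 43.5 TPM, and those of basal epithelium marked MSH2KO21B, with Krt5 at 1.10 and 0.680 against 3888 and 3810.1 TPM. The sum of 8 epithelial markers was 5293 and 5236 TPM in MECPK and 7553 and 7459.7 TPM in MSH2KO21B. Krt5 and Krt14 (3321 and 3316 TPM) held most of the MSH2KO21B sum. Of the 8 markers, 3 were higher and 5 lower in MSH2KO21B, where 46.6% of all genes were higher and 29.7% lower. Epcam was among the lower ones, at 442 and 446 against 114 and 110 TPM. The sum of 9 Mullerian and endometrial markers was 199 and 207 TPM in MECPK and 66.5 and 65.5 TPM in MSH2KO21B, with Pgr, Sox17 and Msx1 under 1 TPM in every library. These differences run with all of the differences above, and their part in them was not tested. Of 10 fibroblast and stromal markers, 9 were under 1 TPM in every library, and Lum was listed at 0 in all. Their sum was 1.23 and 2.25 against 2.32 and 2.44 TPM. Pdgfra was the marker that passed 1 TPM, at 0.265 and 0.771 against 1.15 and 1.39 TPM. It was called higher (log2 difference 0.60, limma adjusted p = 0.0365), but had to differ to be tested. Whether stromal cells have a part in the differences of Sparc, Timp3, Fbn1 and Fstl1 was not tested. Of 8 endothelial markers 5 were under 1 TPM throughout, with sums of 0.403 and 0.072 against 4.86 and 4.79 TPM, and of 9 immune markers 6 were, with sums of 15.4 and 14.6 against 10.2 and 10.01 TPM. The immune markers did not move together. Csf1r was higher in MSH2KO21B, at 0.765 and 0.836 against 3.48 and 3.34 TPM. Cd14 was lower, at 10.9 in each MECPK library against 4.20 and 4.13 TPM, and Cd68 was not called.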

How the data were processed

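RNA-seq of 4 libraries was deposited by the authors as TPM per transcript. The submitters' processing notes name kallisto 0.43.1 and GRCm38. The transcript set is not given in the sources used here, nor are the options, strand or depth. Of 61440 transcripts, 60503 matched GENCODE M21 by identifier without version, and the rest held 0.733% to 0.944% of TPM. The values behave as if computed on coding sequences. TPM was summed per gene. Reads that fit several transcripts are split by estimation, so near-identical genes are uncertain.

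Genes that reached 1 TPM in 2 or more libraries entered limma 3.58.1 (R 4.3.3, mean-variance trend, line as the only term, 2 residual and 2.49 prior degrees of freedom) on log2(TPM + 1), with Benjamini-Hochberg adjustment over all genes tested and a threshold of 0.05. An exact permutation test of 2 against 2 libraries cannot go below p = 0.333. The scripts were tested on simulated data. No library was a copy of another. The members and lists were chosen with earlier results of these data known. All 42 members are named, and from each other list up to 4 called genes of at least 10 TPM with the largest differences. The gene in the name of MSH2KO21B is not reported here. Alternatives were other scalings, filters and pseudocounts, no trend, a replicate block, each library left out, protein-coding transcripts only and, added after seeing the data, complete coding transcripts only.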

Additional observations from a re-analysis of the deposited data

How the results depend on the processing

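Across 14 alternatives, between 29 and 36 of the genes were called instead of 35, and 28 of the 40 kept both direction and side of the threshold wherever they were tested. Of these, 24 had a value in all 14, since a filter of 10 TPM left 33 of the 40. Leaving out a library gave 29 to 36 calls, with the lowest counts without either MSH2KO21B library. Called genes shared with the setting reported numbered 32 for quantile normalization, 32 for median-ratio scaling and 35 for complete coding transcripts. The count of all genes over 1 on the log2 scale was 2244 of 8524 tested with a filter of 10 TPM, instead of 3610 of 11921. Signs turned only for genes that were not called: Ltbp1 (-0.027 with quantile normalization, -0.076 with median-ratio scaling), Acvr2b (-0.49 and -0.083 in the same settings, and -0.012 to 0.13 with a library left out), Id4 (-0.13 with quantile normalization) and Acvr1 (-0.14 to 0.080 with a library left out). The cause was not tested. The median gene moved from 0.19 to -0.026 and -0.011 under those scalings, and the share higher among called genes from 61.1% to 48.1% and 48.9% for all genes and from 77.1% to 70.6% and 72.7% for the genes described. With a replicate block 36 of the genes and 9113 of all genes were called. The replicate numbers share only a number: same-numbered libraries deviated together with a correlation of 0.016 over 11921 genes. With 2 libraries a line and unknown depth, small differences and genes listed at 0 are the least certain.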
